A study of Mus musculus with 7 samples.

Results

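Line O4-4 is 1 of 3 induced pluripotent stem (iPS) cell lines that were made from mouse fibroblasts infected with Oct4 and grown in KSR medium. It was set against its sister lines O4-1 and O4-2 in the same medium, over 19938 genes, to find the genes by which 1 line departs from the other lines. A gene was counted when O4-4 lay 1 log2 unit or more, which is 2-fold or more, above both other lines or below both. The rule found 204 genes. Of these, 108 were higher in O4-4 (0.542% of all genes) and 96 were lower (0.481% of all genes). Each line was read on 1 array, so the groups have no replicates, no test was made and no value carries an error. The number of arrays limits the precision, and the values describe these 7 RNA samples only.

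The series holds 7 Affymetrix arrays, each with the RNA of 1 culture. In KSR medium, lines O4-4, O4-1 and O4-2 gave 3 arrays, and O4-1 gave another in N2B27 medium with 2i, an inhibitor of MEK with an inhibitor of GSK3. OG2 embryonic stem (ES) cells, which carry a green fluorescent reporter of Oct4, gave 1 array in the same 2i medium. Mouse embryonic fibroblasts (MEFs) of 129/OG2 mice, taken at 13.5 dpc, gave 1 array in FBS medium and 1 in the medium called iCD1. Titles and growth conditions gave these groups. Other fields of the labels differ from them, since every description speaks of early iPS cells, the ES sample is sourced to fibroblasts, and iCD1 is named as the medium in the source field of the iPS lines. The labels do not say how long each line had been in culture or whether the lines came from the same infection. Array medians over all probe sets lay between 4.97 and 5.03, and no 2 arrays held the same values.

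O4-4 was the line farther from the others. Against O4-1, 155 genes were 1 log2 unit or more higher in O4-4 and 155 lower, and against O4-2, 287 were higher and 277 lower. Between O4-1 and O4-2, 66 genes were higher in O4-1 and 56 lower. The SD of the difference over all genes was 0.34 for O4-4 minus O4-1, 0.40 for O4-4 minus O4-2 and 0.29 for O4-1 minus O4-2. Markers of pluripotent cells were present in O4-4. Their summed level was 13.65 (log2) in O4-4, against 13.45 in O4-1 and 13.34 in O4-2, and 7.09 and 7.18 in the MEFs. Of these 6 markers, 4 lay above both sister lines, and 2, Pou5f1 and Utf1, lay below both. The rule had chosen Nanog as higher and Utf1 as lower in O4-4, so the distance of the sum to the sister lines is a description only. Pou5f1, the gene of Oct4, stood at 10.61 in O4-4, against 10.99 in O4-1 and 10.99 in O4-2. Whether its probes also read the introduced Oct4 was not tested.

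**Figure D1:**
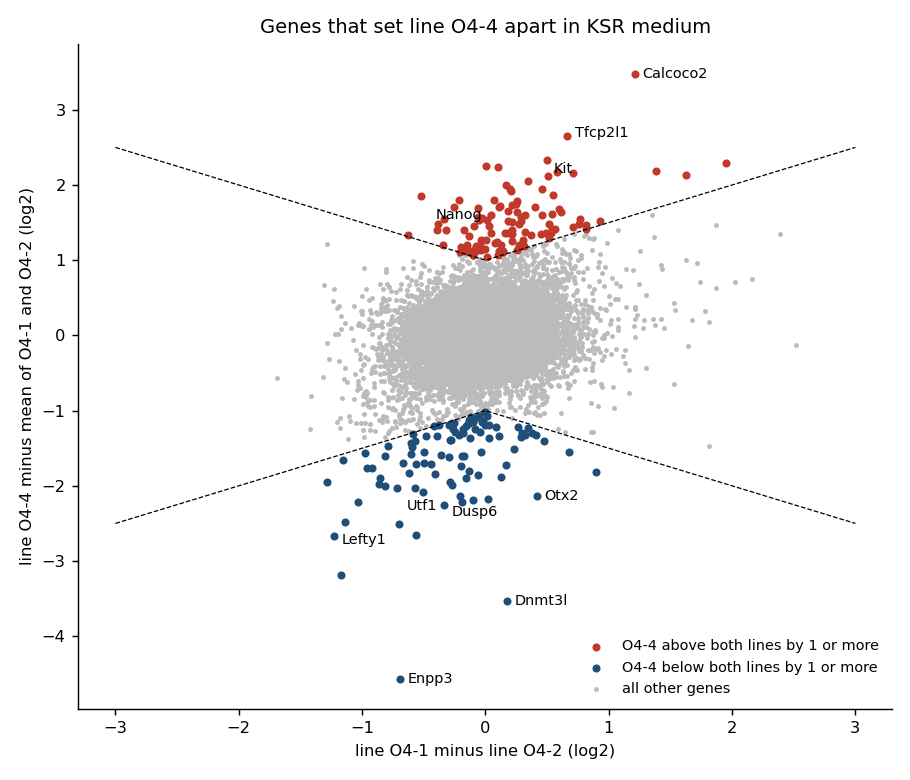
Each point is 1 of 19938 genes. The x axis is line O4-1 minus line O4-2 and the y axis is line O4-4 minus the mean of both, in log2 units. Red points are the 108 genes higher in O4-4 and dark blue points the 96 genes lower in O4-4, and the dashed lines mark the distance of 1 log2 unit to the nearer line.

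Mouse pluripotent cells exist in a naive state, which resembles the epiblast before implantation, and can pass into formative and primed states, which resemble the epiblast around and after implantation. The naive state rests on transcription factors such as Nanog, Tfcp2l1, Klf4, Esrrb and Tbx3 and is held by LIF and by blocking the MEK to ERK kinase cascade, which is what the MEK inhibitor of 2i does. FGF signalling through ERK and Nodal signalling lead cells onward, and Otx2, Fgf5 and the de novo DNA methyltransferases come up on that path. ES and iPS cultures without the 2i inhibitors usually hold cells spread over these states.

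The genes higher in O4-4 held several factors of the naive state, while those lower in O4-4 held the de novo DNA methyltransferases, Otx2, Fgf5, Lefty1 and feedback phosphatases of ERK. The lower genes also held 6 of the 272 microRNA loci measured (2.21%), where 0.481% of all genes were lower by the rule. Only for Mir679 were both sister lines at or above the median over genes on their arrays. The mature microRNAs of 5 of the 6 loci are shown so that their seeds can be compared. In each the seed, bases 2 to 8, is in capitals. The sequences and positions are from RefSeq for GRCm38.p6.
mmu-miR-302b-3p: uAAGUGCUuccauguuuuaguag
mmu-miR-106a-5p: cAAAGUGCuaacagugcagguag
mmu-miR-363-3p: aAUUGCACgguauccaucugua
mmu-miR-300-3p: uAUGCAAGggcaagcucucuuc
mmu-miR-382-5p: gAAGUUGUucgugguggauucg
The first lies at chr3:127545275-127545297 on the plus strand. The next pair, miR-106a-5p at chrX:52742541-52742563 and miR-363-3p at chrX:52741697-52741718, lie on the minus strand in 1 cluster. The last pair, miR-300-3p at chr12:109724363-109724384 and miR-382-5p at chr12:109733781-109733802, lie on the plus strand in the imprinted region between Dlk1 and Dio3. The seeds of miR-302b-3p and miR-106a-5p share the run AAGUGC, shifted by 1 base, while in the RefSeq table those of miR-300-3p and miR-382-5p are shared with 0 other loci. Their values are given further on.

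The distance to the nearer line had a median of 1.27 among the 108 higher genes, with a range of 1.01 to 2.87, and of -1.28 among the 96 lower genes, with a range of -4.22 to -1.0001. Just inside the threshold were Nkain4, Cdx1 and Ildr1 at 1.01 each among the higher genes, and Zfp423 at -1.0001, Mapkapk3 at -1.01 and Lin28a at -1.02 among the lower. Just outside were Thbs2 at 0.996, Mok at 0.995 and Gabarapl2 at 0.993 among the higher, and 2610318N02Rik at -0.998 and Grhl2 and Ccng2 at -0.996 each among the lower. O4-1 and O4-2 lay within 0.5 of each other for 83 of the 108 higher genes and 65 of the 96 lower genes. The sister lines lay farther apart for these genes than for all genes. The median distance between O4-1 and O4-2 was 0.22 for the higher genes and 0.29 for the lower genes, against 0.17 for all genes. O4-4 was nearer to O4-1 than to O4-2 for 74 of the higher genes and 75 of the lower genes. Over all genes too the SD of the difference was smaller against O4-1 (0.34) than against O4-2 (0.40).

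Of the 17 naive pluripotency factors measured, 4 were higher in O4-4 by the rule, 0 were lower, and 15 lay above both other lines by any amount. Over all genes 34.4% lay above both lines and 34.5% below both. For this list and the others, 0.542% of all genes were higher by the rule and 0.481% were lower. The median of O4-4 minus the mean of O4-1 and O4-2 was 0.70 for these 17 genes, against 0.00 for all genes. Tfcp2l1, a transcription factor downstream of LIF and STAT3, stood at 9.68 in O4-4, against 7.37 in O4-1 and 6.70 in O4-2. Its level was 9.79 in ES cells in 2i and 9.10 in O4-1 in 2i, and 4.56 and 4.33 in the MEFs. O4-4 therefore lay between both 2i arrays.

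Nanog, the homeodomain factor that sustains self-renewal, was at 11.55 in O4-4, against 10.16 in O4-1 and 9.94 in O4-2. It reached 11.26 in ES cells and 11.15 in O4-1 in 2i, with 5.35 and 5.02 in the MEFs, so that O4-4 had the highest value of the 7 arrays. Tbx3, a T-box factor, was at 8.87 in O4-4, against 7.28 in O4-1 and 6.74 in O4-2, with 8.63 in ES cells and 8.91 in O4-1 in 2i. Prdm14, which represses de novo methyltransferase genes and FGF signalling in mouse ES cells, was at 7.18 in O4-4, against 6.01 in O4-1 and 5.24 in O4-2. Other naive factors were above both lines by less than the threshold. Klf4 was at 8.72 in O4-4, against 8.15 in O4-1 and 8.02 in O4-2, Tcl1 at 7.47 in O4-4, against 6.85 and 5.92, and Nr5a2 at 7.86 in O4-4, against 6.98 and 6.14. The exceptions were Mycn, at 7.12 in O4-4, against 7.59 in O4-1 and 7.55 in O4-2, and Nr0b1, at 8.52 in O4-4, against 9.01 in O4-1 and 8.53 in O4-2.

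The core pluripotency factors, which the naive and the primed state both use, did not lie to 1 side. Of 12 measured, 1 was higher and 2 were lower by the rule, against 0.542% and 0.481% of all genes. The median difference was 0.00. Sox2 was at 10.20 in O4-4, against 9.97 in both O4-1 and O4-2. Utf1, a chromatin factor of pluripotent cells, was at 7.58 in O4-4, against 9.71 in O4-1 and 9.89 in O4-2, and at 7.81 in ES cells and 8.82 in O4-1 in 2i. Lin28a, which binds RNA and blocks maturation of let-7 microRNAs, was at 8.03 in O4-4, against 9.05 in both O4-1 and O4-2. Foxd3, a forkhead repressor, was the higher one, at 4.00 in O4-4, against 2.80 in O4-1 and 2.73 in O4-2, all below the array medians.

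Of the 22 formative and primed state genes measured, 9 were lower in O4-4 by the rule, 1 (Foxd3) was higher, and 18 lay below both other lines by any amount. Over all genes 0.481% were lower by the rule and 34.5% lay below both lines. The median difference was -0.97. Otx2, the homeodomain factor that drives exit from the naive state, was at 4.50 in O4-4, against 6.85 in O4-1 and 6.43 in O4-2, and at 5.16 in ES cells and 4.63 in O4-1 in 2i. Fgf5, a growth factor of the epiblast after implantation, was at 4.44 in O4-4, against 5.63 in O4-1 and 6.22 in O4-2, and at 4.49 in ES cells and 4.65 in O4-1 in 2i. For both genes O4-4 had a lower value than the 2i arrays.

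Lefty1, a secreted inhibitor and target of Nodal, was at 5.86 in O4-4, against 7.92 in O4-1 and 9.15 in O4-2, with 5.45 in ES cells and 5.86 in O4-1 in 2i. The sister lines lay apart here, with -1.23 for O4-1 minus O4-2, and O4-4 lay at the level of the 2i arrays. Of the 17 Nodal pathway genes measured Lefty1 was the only one past the threshold, and the median difference was -0.37. Below both lines lay 9 of the 17, against 34.5% of all genes. Lef1, a transcription factor of the Wnt pathway, was at 5.71 in O4-4, against 7.13 in O4-1 and 7.69 in O4-2. Cldn6, a tight junction protein, was at 6.38 in O4-4, against 7.40 and 7.99, and Fgf15 at 5.44 in O4-4, against 6.51 and 7.30. Pou3f1 and Etv5, also of the formative list, did not pass, with 9.42 in O4-4, against 9.72 and 9.75 for Pou3f1, and 9.52 in O4-4, against 9.47 and 9.47 for Etv5.

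**Figure D2:**
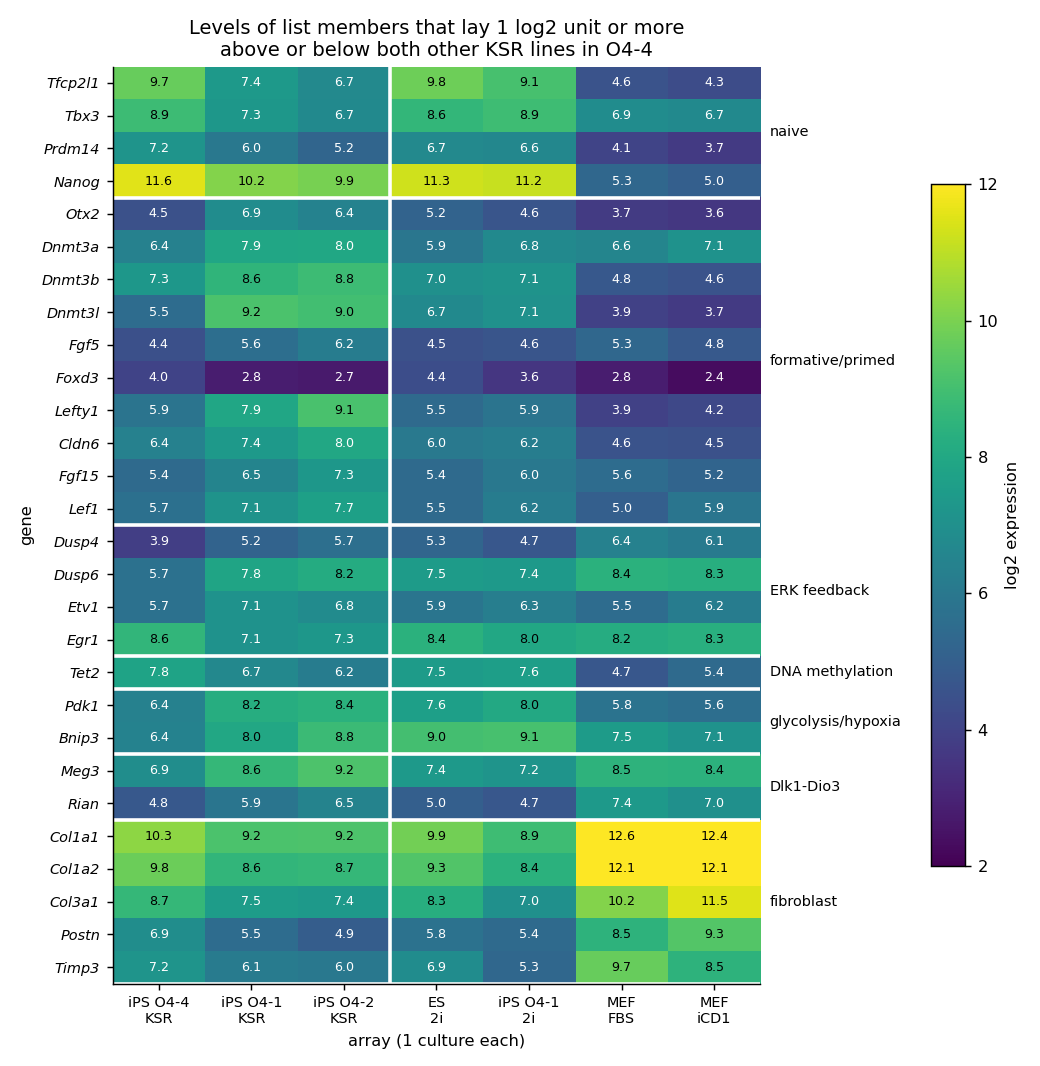
Rows are the genes of 7 lists that lay 1 log2 unit or more above or below both other lines in O4-4, columns are the 7 arrays, and colour and number give log2 expression. A gene of several lists is shown once. Levels are to be compared along a row, since probe sets differ in brightness: Tfcp2l1, Nanog and Tbx3 are high in O4-4 and in both 2i arrays, and Otx2, Lefty1 and Fgf5 are low there.

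Genes that answer to ERK lay mostly below the other lines in O4-4. Of 18 measured, 3 were lower by the rule, 1 was higher and 12 lay below both lines, with a median difference of -0.56. Over all genes 0.481% were lower by the rule, 0.542% were higher and 34.5% lay below both lines. Dusp6, the phosphatase that switches ERK off and is itself made in answer to ERK, was at 5.75 in O4-4, against 7.83 in O4-1 and 8.17 in O4-2. It was at 7.49 in ES cells and 7.36 in O4-1 in 2i and at 8.37 and 8.26 in the MEFs. Dusp6 was the only one of the 19938 genes that lay 1 log2 unit or more below all 6 other arrays in O4-4 (0.00502%) with a difference of -1.61 to the nearest, O4-1 in 2i. Dusp4, a related phosphatase, was at 3.86 in O4-4, against 5.17 in O4-1 and 5.66 in O4-2, and Etv1, an ETS factor induced by FGF, at 5.73 in O4-4, against 7.08 and 6.82. A further probe set of Etv1 gave -0.79 for the distance to the nearer line and did not pass. Egr1, an immediate early zinc finger factor, lay the other way, at 8.59 in O4-4, against 7.10 in O4-1 and 7.28 in O4-2. It was the highest of the 7 arrays, with 8.39 in ES cells and 8.01 in O4-1 in 2i.

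The Wnt and LIF lists lay closer to the other lines. Of 14 Wnt targets, Axin2, a negative regulator of beta-catenin, and Cdx1, a caudal homeobox factor, were higher and Lef1 was lower. By the rule 0.542% of all genes were higher and 0.481% lower. Axin2 was at 7.13 in O4-4, against 5.57 in O4-1 and 5.89 in O4-2, with 6.19 in ES cells and 6.02 in O4-1 in 2i. Of 15 genes of the LIF and STAT3 pathway, 10 lay above both lines, against 34.4% of all genes. Tfcp2l1 alone passed the threshold, and the median difference of the list was 0.36. Apela, a peptide ligand made by ES cells, Wnt8a, a Wnt ligand, and Fzd7, a Wnt receptor, were among the lower genes outside these lists. Fzd7 was at 6.82 in O4-4, against 8.31 in O4-1 and 8.75 in O4-2.

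All 3 members of the de novo DNA methyltransferase family that were measured were lower in O4-4, and the demethylating enzyme Tet2 was higher. Dnmt3l, the cofactor that has no catalytic activity and stimulates Dnmt3a and Dnmt3b, was at 5.54 in O4-4, against 9.16 in O4-1 and 8.99 in O4-2, the second largest distance among the lower genes. It was at 6.74 in ES cells and 7.06 in O4-1 in 2i, above O4-4, and at 3.94 and 3.71 in the MEFs. Dnmt3a was at 6.39 in O4-4, against 7.93 in O4-1 and 7.96 in O4-2, with 5.92 in ES cells and 6.76 in O4-1 in 2i. Dnmt3b was at 7.31 in O4-4, against 8.56 in O4-1 and 8.84 in O4-2, with 7.01 in ES cells and 7.14 in O4-1 in 2i. Tet2, which oxidises methylated cytosine, was at 7.79 in O4-4, against 6.67 in O4-1 and 6.21 in O4-2, with 7.50 in ES cells and 7.59 in O4-1 in 2i. Dnmt1, which copies methylation at replication, was at 9.02 in O4-4, against 8.93 in O4-1 and 8.84 in O4-2, and Tet1 at 9.89 in O4-4, against 9.80 and 9.39.

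The imprinted region between Dlk1 and Dio3 on chromosome 12 carries genes expressed from the maternal copy (Meg3, Rian and a large set of snoRNAs and microRNAs) and genes expressed from the paternal copy (Dlk1, Rtl1 and Dio3). In mouse iPS cells the maternal transcripts are known to be silenced in some lines and not in others. Meg3, a long noncoding RNA, was at 6.90 in O4-4, against 8.65 in O4-1 and 9.22 in O4-2. It was at 7.35 in ES cells and 7.16 in O4-1 in 2i, and at 8.47 and 8.41 in the MEFs, so that O4-4 had the lowest value and the same line O4-1 differed between its 2 media. Rian, the host of snoRNAs in the region, was at 4.77 in O4-4, against 5.88 in O4-1 and 6.46 in O4-2. It was at 5.03 in ES cells and 4.70 in O4-1 in 2i.

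The region holds 48 features measured on the array. Which of them were looked at beyond the 5 listed genes was decided after values had been seen. In O4-4, 38 of the 48 lay below both other lines (79.2%), 1 lay above both, and 6 were lower by the rule, namely Meg3, Rian, DQ267102, Mir679, Mir300 and Mir382. Of all genes 34.5% lay below both and 0.481% were lower by the rule. Of the 40 microRNA loci in the region 32 lay below both lines (80%), against 67 of the 232 microRNA loci elsewhere (28.9%). The median difference was -0.38 for the 48 features, against 0.00 for all genes. Of the 48 features 21 had a KSR value at or above the array median. Features of 1 region can share a transcript and are not independent of each other. Dlk1 was at 6.19 in O4-4, against 6.26 in O4-1 and 6.37 in O4-2.

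**Figure D3:**
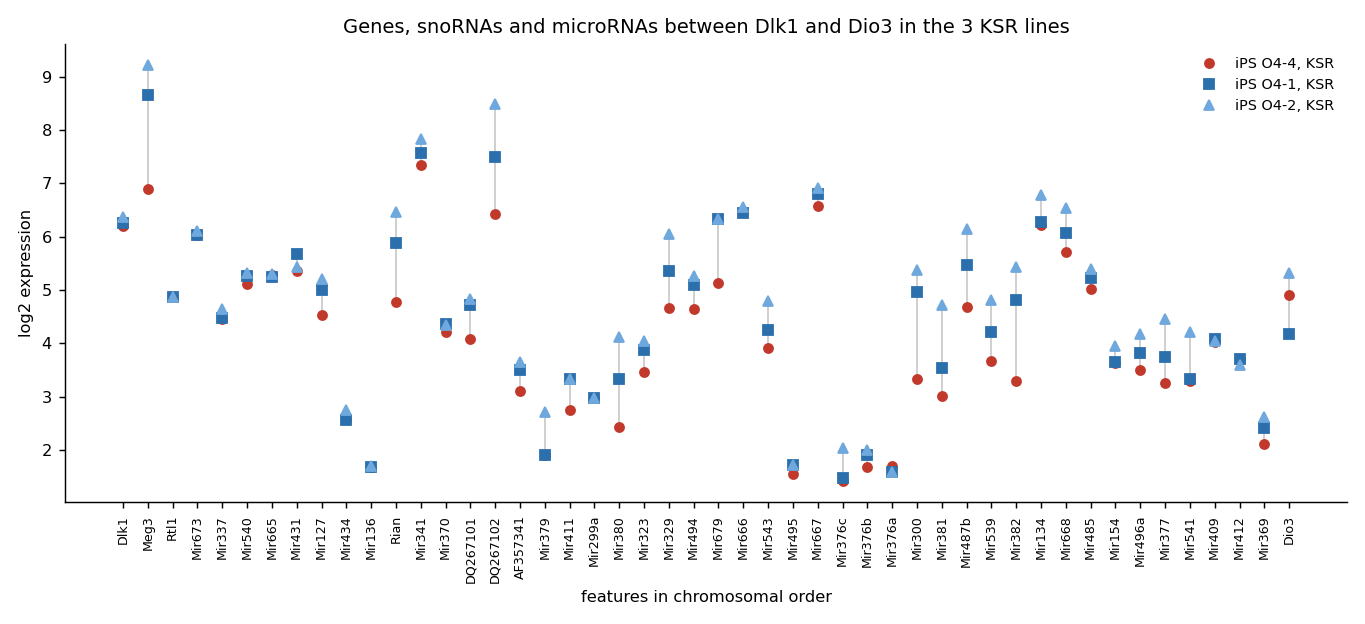
Each position on the x axis is 1 of the 48 measured features between Dlk1 and Dio3 in chromosomal order, and the y axis is log2 expression in the 3 KSR lines. The O4-4 point is the lowest for 38 features, and the 3 widest distances to the nearer line are at Meg3, Mir300 and Mir382.

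Among the microRNA loci of the region, Mir300 was at 3.33 in O4-4, against 4.96 in O4-1 and 5.37 in O4-2, Mir382 at 3.29 in O4-4, against 4.81 and 5.43, and Mir679 at 5.14 in O4-4, against 6.33 and 6.33. The probe sets read RNA of the locus and do not separate mature arms from precursors. The start of Meg3, chr12:109540746-109541045 on the plus strand of GRCm38.p6 from RefSeq, a window of 300 bases from upstream of the first base into the transcript, is shown because DNA methylation near it is known to accompany silencing of the maternal transcripts. No methylation was measured in this series. Its 13 CpG dinucleotides are in capitals.
Meg3: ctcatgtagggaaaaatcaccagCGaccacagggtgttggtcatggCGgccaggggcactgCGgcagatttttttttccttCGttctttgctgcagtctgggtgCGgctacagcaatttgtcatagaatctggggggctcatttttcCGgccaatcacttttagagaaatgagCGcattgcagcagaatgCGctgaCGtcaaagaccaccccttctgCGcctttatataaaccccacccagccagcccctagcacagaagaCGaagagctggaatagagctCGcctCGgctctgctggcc
Of all promoters of that length, 46.4% hold no more CpG dinucleotides than this one.

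Outside that region, the other 3 microRNA loci that were lower in O4-4 belong to clusters of pluripotent cells. Mir302b, of the cluster that carries the AAGUGCU seed, was at 2.81 in O4-4, against 4.48 in O4-1 and 5.20 in O4-2. The rest of its cluster, Mir302a, Mir302c, Mir302d and Mir367, lay below both lines as well, with differences of -0.74 to -0.26 to the nearer line. Mir363 was at 2.35 in O4-4, against 4.15 in O4-1 and 4.44 in O4-2, and its neighbour Mir106a at 2.95 in O4-4, against 4.23 and 5.19. The other members of their cluster on the X chromosome, Mir20b, Mir19b-2 and Mir92-2, lay below both lines by less. Of loci elsewhere that share the AAAGUGC seed with Mir106a, Mir17 was at 5.19 in O4-4, against 6.47 in O4-1 and 6.02 in O4-2, and Mir20a at 6.49 in O4-4, against 7.39 and 7.20. Mir93 did not follow, at 5.14 in O4-4, against 5.11 and 5.11. Apart from Mir17 and Mir20a these levels lie below the medians over genes on the same arrays (5.16 in O4-4, against 5.17 in O4-1 and 5.23 in O4-2), and the neighbours and seed relatives were chosen after values had been seen.

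Of 18 other imprinted genes, Plagl1 was higher and Peg10 lower. Plagl1, a zinc finger factor expressed from the paternal copy, was at 7.79 in O4-4, against 5.99 in O4-1 and 5.28 in O4-2, and at 8.07 in ES cells and 7.20 in O4-1 in 2i. Peg10, a gene of retrotransposon origin needed in the placenta, was at 6.84 in O4-4, against 8.48 in O4-1 and 8.68 in O4-2, and at 6.72 in ES cells and 7.12 in O4-1 in 2i. Both genes in O4-4 lay between the values of the 2i arrays.

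The largest distance in each direction belonged to a gene outside the state lists. Enpp3, an ectonucleotide pyrophosphatase of the cell surface, was at 3.81 in O4-4, against 8.03 in O4-1 and 8.72 in O4-2, and at 4.37 in ES cells and 4.81 in O4-1 in 2i. Its distance of -4.22 was the largest of all. Calcoco2, an autophagy receptor, was the farthest above, at 9.71 in O4-4, against 6.84 in O4-1 and 5.63 in O4-2. It was at 8.87 in ES cells and 7.85 in O4-1 in 2i, at 3.38 and 3.70 in the MEFs, and a further probe set of Calcoco2 gave 2.58 for the distance to the nearer line. Kit, the receptor of stem cell factor, was at 9.56 in O4-4, against 7.48 in O4-1 and 6.98 in O4-2, with 9.18 in ES cells and 8.997 in O4-1 in 2i. Ly75, an endocytic receptor, was at 7.99 in O4-4, against 5.80 and 5.70, with 8.73 in ES cells and 8.07 in O4-1 in 2i. Serpinb1a, a protease inhibitor, was at 5.73 in O4-4, against 3.47 in O4-1 and 3.47 in O4-2, with 4.99 in ES cells and 4.41 in O4-1 in 2i.

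The rest of the 20 largest distances among higher genes ran from 1.63 to 1.91. They included Rnf213, a ubiquitin ligase, at 8.45 in O4-4, against 6.54 in O4-1 and 6.37 in O4-2, and Aqp3, a water and glycerol channel, at 9.67 in O4-4, against 7.81 and 7.30. Spic, an ETS family factor, was at 5.97 in O4-4, against 4.08 and 3.50, and Ifit1, an interferon-induced gene, at 5.37 in O4-4, against 3.56 and 3.35. Ifit1 was the only one of 16 interferon and antigen presentation genes past the threshold. The others were Plagl1, Cdo1, a cysteine dioxygenase, Dnah8, an axonemal dynein, Slc15a1, a peptide transporter, Saa3, a serum amyloid protein, Itpka, an inositol trisphosphate kinase, Usp46, a deubiquitinase, and Prss35, Cmtm7, Pamr1 and AA467197.

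Of 16 carbonic anhydrase genes measured, a family looked at after values had been seen, Car4, Car2 and Car14 were lower by the rule, 9 lay below both lines and 3 above both. Over all genes 0.481% were lower by the rule, 34.5% lay below both lines and 34.4% above both. Car14 was at 3.59 in O4-4, against 4.71 in O4-1 and 5.32 in O4-2, with O4-4 and O4-1 below their array medians. Car9 was at 3.53 in O4-4, against 3.51 in O4-1 and 3.78 in O4-2. Car4 was at 4.06 in O4-4, against 6.65 in O4-1 and 7.83 in O4-2, with 3.70 in ES cells and 4.13 in O4-1 in 2i, and Car2 was at 5.21 in O4-4, against 7.37 and 8.07, with 6.45 in ES cells and 5.17 in O4-1 in 2i. Slc7a7, a transporter of cationic amino acids, was at 5.33 in O4-4, against 7.70 in O4-1 and 8.26 in O4-2. Slc27a2, which activates and imports long fatty acids, was at 5.99 in O4-4, against 7.90 and 9.04. In 2i, Slc7a7 was at 4.84 in ES cells and 5.95 in O4-1, and Slc27a2 at 5.92 in ES cells and 6.20 in O4-1.

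Of 31 glycolysis and hypoxia genes, 2 were lower in O4-4 by the rule, 0 were higher and 20 lay below both lines, with a median difference of -0.31. For this list and those that follow, 34.5% of all genes lay below both lines and 34.4% above both. Pdk1, the kinase that shuts off pyruvate dehydrogenase, was at 6.41 in O4-4, against 8.22 in O4-1 and 8.38 in O4-2. Bnip3, a mitochondrial protein induced in hypoxia, was at 6.42 in O4-4, against 8.01 in O4-1 and 8.83 in O4-2. Here the 2i arrays sided with the sister lines, since Pdk1 was at 7.63 in ES cells and 8.02 in O4-1 in 2i, and Bnip3 at 9.01 in ES cells and 9.08 in O4-1 in 2i. Among 20 serine synthesis and amino acid response genes, the arginine and lysine transporter Slc7a3 alone was lower, at 8.62 in O4-4, against 9.92 in O4-1 and 10.04 in O4-2. Of 17 p53 targets and cell cycle inhibitors, Gadd45a alone was lower and 13 lay below both lines, with a median difference of -0.40. None of 18 cholesterol biosynthesis genes passed the threshold, with 12 above both lines and a median of 0.31.

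Several other lower genes have known roles. Usp44, a deubiquitinase of the mitotic checkpoint, was at 4.85 in O4-4, against 7.04 in O4-1 and 7.01 in O4-2. Esrp1, which sets epithelial splicing, was at 6.21 in O4-4, against 8.03 and 8.09. Of 20 epithelial genes, Esrp1 and Cldn6 passed the threshold. Sox11, the lone one of 15 neural progenitor genes to pass, was at 5.13 in O4-4, against 6.96 and 7.47. Myrf, a membrane-bound transcription factor, was at 4.84 in O4-4, against 6.70 and 6.97. Map7d3, Etfbkmt, Pdzd4 and Tmem54 complete the 20 largest. The second probe set of Etfbkmt, at 2.59 in O4-4, against 2.67 and 2.67, did not show the difference.

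Among 24 germline genes, Kit and Stra8, a gene induced by retinoic acid before meiosis, were higher, and Mael, of the piRNA pathway, was lower. Stra8 was at 6.73 in O4-4, against 5.59 in O4-1 and 5.02 in O4-2, and Mael at 5.45 in O4-4, against 7.72 and 6.82. Dmrt1, a factor of the testis, and Khdc3, of the oocyte's subcortical complex, were higher as well, outside that list. The median of the germline list was 0.07. By the rule 0.542% of all genes were higher and 0.481% lower.

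**Figure D4:**
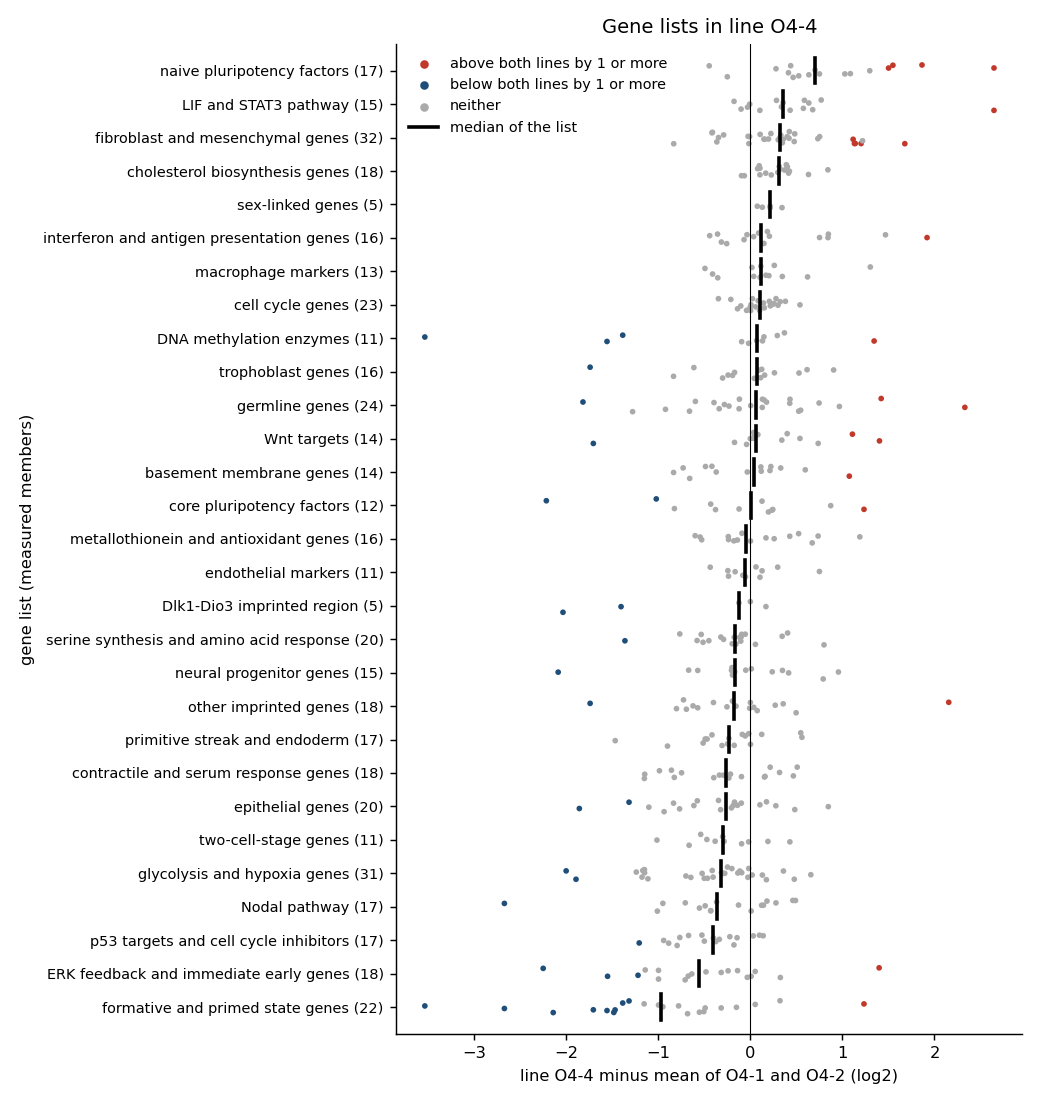
Each row is 1 of 29 gene lists with its number of measured members, each point 1 gene, and the x axis is line O4-4 minus the mean of O4-1 and O4-2 in log2 units. Black bars are list medians, with the naive list at 0.70 and the formative and primed list at -0.97.

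Over the 29 lists, 19 of the 108 higher genes and 24 of the 96 lower genes were list members, and 9 lists had no member past the threshold. The lists hold 486 measured entries, with a gene of several lists entered in each, beside 19938 genes in all. They were drawn up with earlier results of these data known, so the counts of list members are descriptions only. List medians other than those given lay between -0.30 and 0.21. They are descriptions of 3 arrays beside the median of 0.00 over all genes.

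The levels of the 204 genes in the 2i and MEF arrays were not used to choose them, apart from the pick of 1 probe set per gene by its mean over all 7 arrays. Further probe sets existed for 12 of the 204. Genes with both 2i arrays 1 log2 unit or more above both MEF arrays made up 40 of the 108 higher genes (37.0%) and 22 of the 96 lower genes (22.9%), against 4.30% of all genes. Genes with both MEF arrays that far above both 2i arrays made up 18 of the higher (16.7%) and 9 of the lower (9.38%), against 6.19% of all genes. Among the 10587 genes with a KSR value at or above the median the shares were 7.76% and 7.89%. Of the higher genes 101 and of the lower genes 91 had such a value. The 40 higher genes of the first kind had a median level of 7.19 in O4-4, against 5.94 in O4-1 and 5.55 in O4-2, and of 7.18 in ES cells and 6.88 in O4-1 in 2i. The 96 lower genes had a median level of 5.10 in O4-4, against 6.64 in O4-1 and 6.82 in O4-2, and of 5.45 in ES cells and 5.54 in O4-1 in 2i. The rule fixes the distance to the sister lines in both sets, and the 40 genes were also sorted by their 2i levels, so that these medians are descriptions only.

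**Figure D5:**
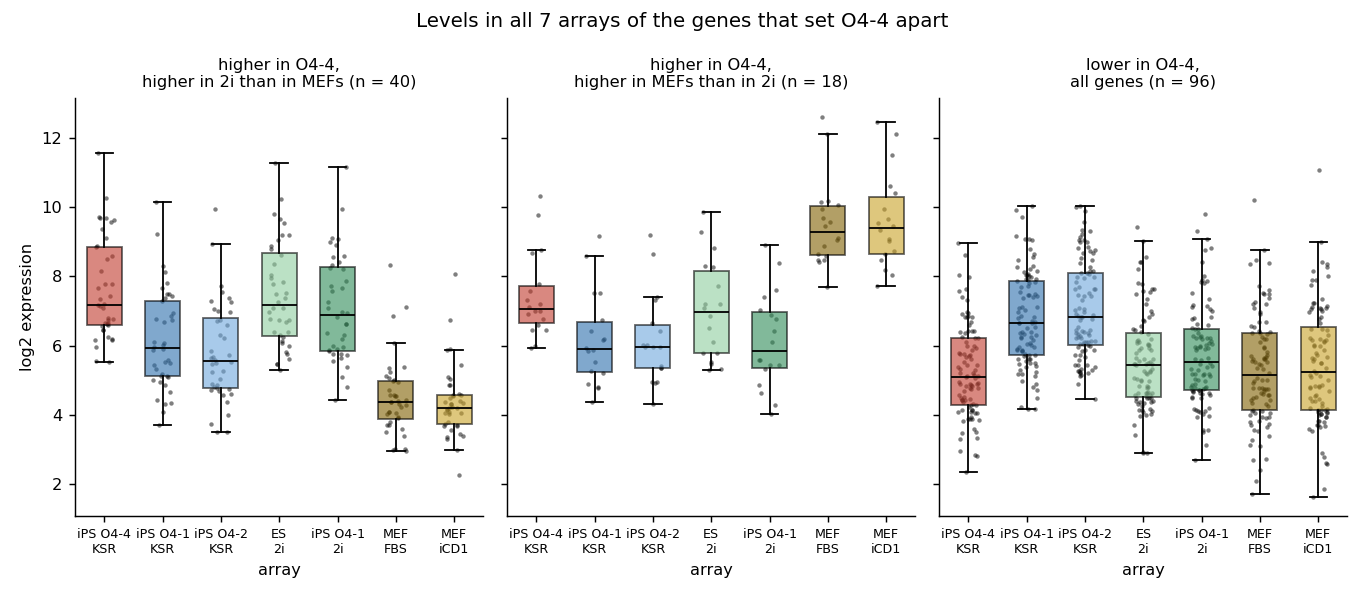
Boxes show the median and quartiles of log2 expression over genes on each array, whiskers reach the farthest gene within 1.5 times the box length, and points are genes. The 40 genes that are higher in 2i than in MEFs and the 96 lower genes are shown beside the levels of the 2i and MEF arrays. The 18 genes that are highest in MEFs are intermediate in O4-4, where the rule fixes that they lie above the sister lines.

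The 18 higher genes that were highest in MEFs were sorted by role after values had been seen. They were the collagen genes Col1a1, Col1a2, Col3a1 and Col12a1, the matrix proteins Postn, Ogn, Vcan, Fbn2 and Nid1, the metalloprotease inhibitor Timp3, the collagen receptor Ddr2, the ligands Pdgfc, Slit2 and Sema3c, and Lxn, Itm2a, Fndc3b and Ccdc80. Col1a1 was at 10.32 in O4-4, against 9.17 in O4-1 and 9.21 in O4-2. It was at 9.87 in ES cells and 8.90 in O4-1 in 2i, and at 12.61 and 12.45 in the MEFs. Col3a1 was at 8.67 in O4-4, against 7.53 in O4-1 and 7.41 in O4-2, with 8.29 in ES cells and 7.02 in O4-1 in 2i, and Postn was at 6.92 in O4-4, against 5.53 and 4.94. The median of the 18 was 7.06 in O4-4, against 5.90 in O4-1 and 5.97 in O4-2, with 6.98 in ES cells and 5.84 in O4-1 in 2i, and 9.28 and 9.39 in the MEFs. O4-4 and the ES cells lay near each other and above the other 3 pluripotent arrays. The rule fixes the distance of O4-4 to the sister lines in KSR. The 18 genes were also sorted by their MEF and 2i levels, so these medians are descriptions only.

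Of 32 fibroblast and mesenchymal genes, 5 were higher in O4-4 by the rule (Col1a1, Col1a2, Col3a1, Postn and Timp3), 0 were lower and 22 lay above both lines, with a median difference of 0.33. Over all genes 0.542% were higher by the rule and 34.4% lay above both lines. All 8 fibroblast markers were measured. Col1a1, Col1a2, Postn, Prrx1 and Lum lay above both lines and Thy1, Pdgfra and Twist2 below both. Their summed level was 11.34 (log2) in O4-4, against 10.37 in O4-1 and 10.36 in O4-2, with 10.87 in ES cells and 9.99 in O4-1 in 2i, and 13.71 and 13.85 in the MEFs. As a share of the mean of the MEF arrays the sum was 18.4% in O4-4, against 9.39% in O4-1 and 9.31% in O4-2, with 13.3% in ES cells and 7.22% in O4-1 in 2i. Col1a1, Col1a2 and Postn, which the rule had chosen as higher in O4-4, made up 87.2% of the sum in O4-4, against 76.0% in O4-1 and 78.3% in O4-2. The other 5 markers alone summed to 8.37 (log2) in O4-4, against 8.31 in O4-1 and 8.16 in O4-2, with 7.99 in ES cells and 7.37 in O4-1 in 2i, and 11.21 and 12.005 in the MEFs. Pdgfra was at 5.78 in O4-4, against 6.44 in O4-1 and 5.96 in O4-2, with 9.24 and 10.61 in the MEFs. Contractile and serum response genes, with list medians of 9.86 and 8.24 in the MEFs, lay the other way. Of 18 measured, 0 passed the threshold, 10 lay below both lines and 4 above both, with a median difference of -0.26. Acta2 was at 7.79 in O4-4, against 8.18 in O4-1 and 9.12 in O4-2. The part of fibroblasts in the matrix genes was not tested. In RNA from whole cultures more cells of a type and more RNA per cell cannot be told apart.

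Markers of other cell types showed smaller distances. The summed level of 6 extraembryonic endoderm markers was 7.88 in O4-4, against 8.37 in O4-1 and 8.05 in O4-2, of 5 trophoblast markers 7.27 in O4-4, against 7.10 and 7.22, and of 4 neural markers 8.05 in O4-4, against 7.88 and 8.04. That of 5 macrophage markers was 7.44 in O4-4, against 7.16 and 7.22, with 4 above both lines, where 34.4% of all genes lay. That of 4 endothelial markers was 6.15 in O4-4, against 6.35 and 6.12. No marker of these 5 lists passed the threshold, and none is at 0, since the deposited values have no zero level.

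The ES cells and O4-1 in 2i differ in line and share the medium. Beyond the pick of probe sets neither array entered the choice of genes, although O4-1 in 2i is the same line as an array that did. Of the 108 higher genes, 91 were higher in ES cells than in O4-1 in 2i (84.3%), with a median of ES minus O4-1 of 0.44. Of the 96 lower genes, 34 were (35.4%), with a median of -0.24. Over all genes 46.5% were, with a median of -0.01. By 1 log2 unit or more, 18 of the 108 higher genes were higher in ES cells, against 0.672% of all genes, and 4 of the 96 lower genes were lower in ES cells, against 0.306% of all genes. All 18 higher genes that were highest in MEFs were higher in ES cells than in O4-1 in 2i, with a median of 0.94. This was not particular to them. Of the 9 lower genes that were highest in MEFs, 7 were higher in ES cells (77.8%), with a median of 0.20. The 32 fibroblast and mesenchymal genes had a median level of 6.37 in ES cells, against 5.67 in O4-1 in 2i.

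O4-4 had the highest value of all 7 arrays for 49 of the 108 higher genes, against 11.6% of all genes, and the lowest for 38 of the 96 lower genes, against 12.2% of all genes, which the rule on 3 of the arrays favours. It lay 1 log2 unit or more above all 6 other arrays for 8 genes (0.0401% of all genes). These were Ifit1, Itpka, Hesx1, a homeodomain factor of the forebrain and pituitary, Alox12, a lipoxygenase, Slc28a3, a nucleoside transporter, Gca, a calcium-binding protein, Magea5 and Gm773. Hesx1 was at 5.26 in O4-4, against 3.84 in O4-1 and 3.65 in O4-2, and at 3.94 in ES cells and 4.13 in O4-1 in 2i. Gca was at 9.36 in O4-4, against 8.30 and 7.37, and at 7.97 in ES cells and 8.21 in O4-1 in 2i. Magea5 was at 5.12 in O4-4, against 3.80 in O4-1 and 2.17 in O4-2, so that the sister lines themselves lay far apart. Hesx1, Alox12, Slc28a3, Gca, Magea5 and Gm773 were named after their values had been seen.

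The starts of 83 of the 108 higher genes and 73 of the 96 lower genes were in the RefSeq promoter table, and 5 short motifs were counted on both strands of the 300 bases, and a promoter was counted once for a motif, also where matches of different motifs overlapped. The STAT palindrome TTCNNNGAA was in 3.61% of the higher genes' promoters and 6.85% of the lower genes', against 7.83% of all. The ETS core CCGGAA was in 7.23% and 19.2%, against 20.1% of all. The GC box GGGCGG was in 60.2% and 69.9%, against 49.9% of all. Both sets also had promoters richer in G and C, with median contents of 61.0% and 62.7%, against 57.7% for all. The promoters of all genes were not limited to genes with higher levels. The TCF/LEF motif ATCAAAG was in 1.20% and 5.48%, against 3.18% of all, and the hypoxia response core ACGTG in 24.1% and 20.5%, against 21.7% of all. The promoters of Tfcp2l1 and Nanog held none of the 5. A match is only a run of letters, and binding was not measured.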

How the data were processed

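RNA of 7 mouse cultures was labelled with biotin and hybridised to 7 arrays. The authors deposited log2 expression values per probe set, for which the submitters' processing notes name RMA and Partek. The sources used here give no versions of them. Signal over background is not given, so low values are not separated from background. RMA compresses small differences at low levels.

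Of 28853 probe sets, 21789 had 1 gene symbol in the array's annotation table, 1621 had several and 5443 were not listed. The probe set with the highest mean over 7 arrays stood for a gene (999 genes had several), which left 19938. A RefSeq gene ID matched 21698 of the first kind, and 0 symbols changed. Groups came from titles and growth conditions. Values were used as deposited, with python 3.11.15, pandas 2.3.3 and numpy 2.4.6. The counting rule was run on simulated data as a check of the calculation only. That run does not bear on calls near the threshold in these arrays.

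No test was made, because each group is 1 array. The members, the 29 gene lists (534 entries, 46 of them not measured and 5 matched by synonym) and the comparisons were chosen with earlier results of these data known. Named genes were the 20 largest distances each way among genes at or above the array median, list members past the threshold, and the 3 genes each side of it. Dmrt1, Khdc3, Apela, Wnt8a, Fzd7, Car14 and the genes of the MEF class outside the lists were named after their values had been seen. Alternatives were other thresholds, quantile normalization, centring, a filter on low values, other choices among probe sets, and each sister line alone.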

Additional observations from a re-analysis of the deposited data

Results flagged for a closer look

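Probe sets outside the gene table also set O4-4 apart. Of 1621 probe sets with several gene symbols, 6 lay 1 log2 unit or more above both other lines (0.37%) and 23 below both (1.42%). Of 5443 probe sets not in the annotation table, 20 lay above (0.367%) and 50 below (0.919%). The median level in O4-4 was 4.68 and 3.64 for the 6 and the 23, and 7.44 and 4.79 for the 20 and the 50. Over the genes the shares were 0.542% above and 0.481% below. Which transcripts the unlisted probe sets read was not tested.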

How the results depend on the processing

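No paired analysis was possible because each group holds 1 array and no replicate number is shared as a pair. The counts of higher and lower genes moved with the threshold, to 32 and 32 at 1.5 log2 units and to 437 and 420 at 0.58. Against a single sister line the counts of higher genes were 155 to 287 and of lower genes 155 to 277, the larger against O4-2 and the smaller against O4-1, as there was 1 line to pass in place of both. Quantile normalization gave 107 and 92, centring on array medians 119 and 91, a filter on low values 101 and 91 of 10587 genes, the mean over probe sets 109 and 98, and the probe set with the largest spread 109 and 100. Under the filter, median levels of the higher genes were 6.84 in ES cells in 2i, 5.45 in FBS MEFs and 5.69 in iCD1 MEFs, against 6.70, 5.28 and 5.34 without it, and of the lower genes 5.33 in FBS MEFs, against 5.14 without it. The filter drops dim genes by construction. The 40 genes of the largest distances stayed past 1 log2 unit under quantile normalization and centring. Single lines and the filter cannot end their calls by construction, and other choices among probe sets bear on 3 of the 40, Calcoco2, Rnf213 and Etfbkmt, which stayed past it, Etfbkmt at -1.05 with the mean over probe sets. List medians under alternatives other than single lines stayed within the spread between O4-1 and O4-2 in 126 cases and moved past it in 19, and against single lines in 34 and 24. Further probe sets existed for 12 of the 204 genes, and of these 14 probe sets 6 passed the threshold and 12 had the same sign. A single array per line cannot separate a difference between lines from one between cultures, and signal over background is not known.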
